A study of Homo sapiens with 24 samples.

Results

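The response of control-siRNA-transfected HepaRG cells to Wnt3a was described from 6 of the 24 arrays of the series. They were chosen by their labels: 3 arrays of cells given control siRNA and then Wnt3a, and 3 of cells given control siRNA and left untreated. HepaRG is a bipotent liver progenitor line established from a hepatocellular carcinoma. Cells in suspension received 80 pmol of control siRNA by electroporation. Mouse recombinant Wnt3a was then added at 200 ng/ml for 72 h, in serum-free medium with bovine serum albumin between day 1 and day 3 after transfection, while the untreated cells had the same siRNA and medium without it. The series also holds untransfected cells and cells given CTNNB1 siRNA, each with and without Wnt3a, used below for comparison. Its other conditions are untransfected cells given mouse FZD8_CRD, a soluble Wnt-binding domain, at 300 ng/ml with or without Wnt3a, which entered only the shared model and the choice of probes. The 8 conditions have 3 independent cultures each. The arrays were 1-colour Agilent whole-genome arrays. The comparison addresses what Wnt3a alone does to gene expression in transfected progenitors whose β-catenin was not depleted.

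Wnt3a is a secreted ligand that binds Frizzled receptors together with the co-receptors LRP5 and LRP6. Binding stops the APC and AXIN destruction complex from marking β-catenin, the product of CTNNB1, for degradation, and β-catenin then enters the nucleus and activates genes together with TCF and LEF factors. In the liver the pathway is known for zonation of hepatocytes, for progenitor growth and for its activation in part of the hepatocellular carcinomas.

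Levels are log2 intensities relative to the 75th percentile of their own array, so 0 is the level of that percentile and levels of different probes are not compared. Between 60.07% and 66.5% of the spots of the 6 arrays were well above background, and the number of arrays limits the precision. The probes of 10 liver cell markers, namely ALB, APOA1, APOB, HNF4A, FOXA2, KRT8, KRT18, KRT19, KRT7 and SOX9, were well above background on all 6 arrays, whereas the EPCAM probe was on none. CTNNB1 itself stood at 3.35, 3.39 and 3.52 on the untreated arrays and at 3.39, 3.62 and 3.70 with Wnt3a. The ranges overlapped, and the difference of 0.15 was not called (limma, adjusted p = 0.86).

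Wnt3a changed 497 of 24648 genes tested (2.02%; limma, adjusted p under 0.05), 262 upwards (1.06%) and 235 downwards (0.953%). The rises included 8 of 36 collagens, 8 of 34 matrix glycoproteins and 9 of 23 matrix proteases and their partners. They also included 6 of 15 feedback genes of Wnt signalling and IGFL1, IGFL2 and IGFL3. PSCA, S100P, AGR2 and PLIN5 were among the genes that fell. The lists were chosen with earlier results of these data known. Their counts here and below, set beside the 2.02% of all genes tested, are thus a description and no test. More than 2-fold changes were mostly rises, 79 against 27. The median log2 difference was 0.76 for called rises and −0.51 for called falls, beside 0.03 over all genes tested. Of all 24648 genes tested 13883 were higher with Wnt3a. All 497 genes changed the same way in the 3 same-numbered pairs, as did 46.03% of all genes tested. In 496 of the 497 the groups did not overlap (23.5% of all genes tested). The genes were called on these same arrays, which by itself favours both, as it does for each called gene below. With the replicate number as a block, 1035 genes were called (4.2%), 546 upwards and 489 downwards. At the thresholds of the study, an unadjusted p under 0.01 with a fold above 1.5 or below 0.7, the count was 676 (2.74%), 350 upwards (1.42%) and 326 downwards (1.32%). With each array scaled to its 7 positive spike-in probes, 57 genes were called higher and 1 lower. The mean of the spike-in probes lay at 2.69, 2.39 and 2.91 on the untreated arrays and at 2.76, 2.30 and 2.45 on the Wnt3a arrays, so the groups overlapped. It differed by −0.16 between Wnt3a and untreated arrays, by 0.07, −0.08 and −0.46 within replicates 1, 2 and 3, and by −0.04 without untreated replicate 3 and −0.06 without Wnt3a replicate 2, against −0.30 without untreated replicate 2 and −0.29 without Wnt3a replicate 1. With this scaling the median of all genes moved from 0.03 to 0.18. The 1 gene still called lower was PSCA, while other falls kept their sign and lost the call, such as PLIN5 (−1.53) and S100P (−1.48). Of the 497 genes, 9 were not well above background on the untreated arrays and 2 on the Wnt3a arrays. Such a gene was tested only because another condition had its probe well above background, which by itself favours a difference.

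The count changed when single cultures were left out. It was 92, 259 and 50 without untreated replicate 1, 2 and 3, and 310, 89 and 134 without Wnt3a replicate 1, 2 and 3. Leaving out replicate 1, 2 or 3 of every condition gave 4, 12 and 582. Of all list members described below, RNF43 alone was called without replicate 1. Statements below that a call was kept or lost only without certain arrays refer to single arrays left out. Fewer arrays give less precision, so a call lost this way need not mean that the difference rested on that culture. Without single arrays the log2 rise of COL16A1 ran from 0.69 to 0.72, although none of these models called it. That of HTRA3 ran from 1.42 to 2.53. Calls also moved under other settings. The models of only the 6 arrays and of only the 12 siRNA arrays called 1307 and 1943 genes. With normexp background correction, which adds an offset of 50 to every intensity, many dim genes named below differed by less, and 22 of 93 named calls were lost. Except in the models of the 6 and of the 12 siRNA arrays, p-values rest on the spread between cultures within every condition. They thus do not measure the spread of the 6 compared cultures alone. Each replicate number was also 1 slide and 1 scan. Wnt3a arrays always lay in the same row of the slide, so array position and Wnt3a cannot be told apart. Untransfected, control siRNA and CTNNB1 siRNA arrays each lay in a slide column of their own, so column and these states cannot be told apart either. In bulk RNA, fewer cells of a type and less RNA per cell cannot be told apart.

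**Figure D1:**
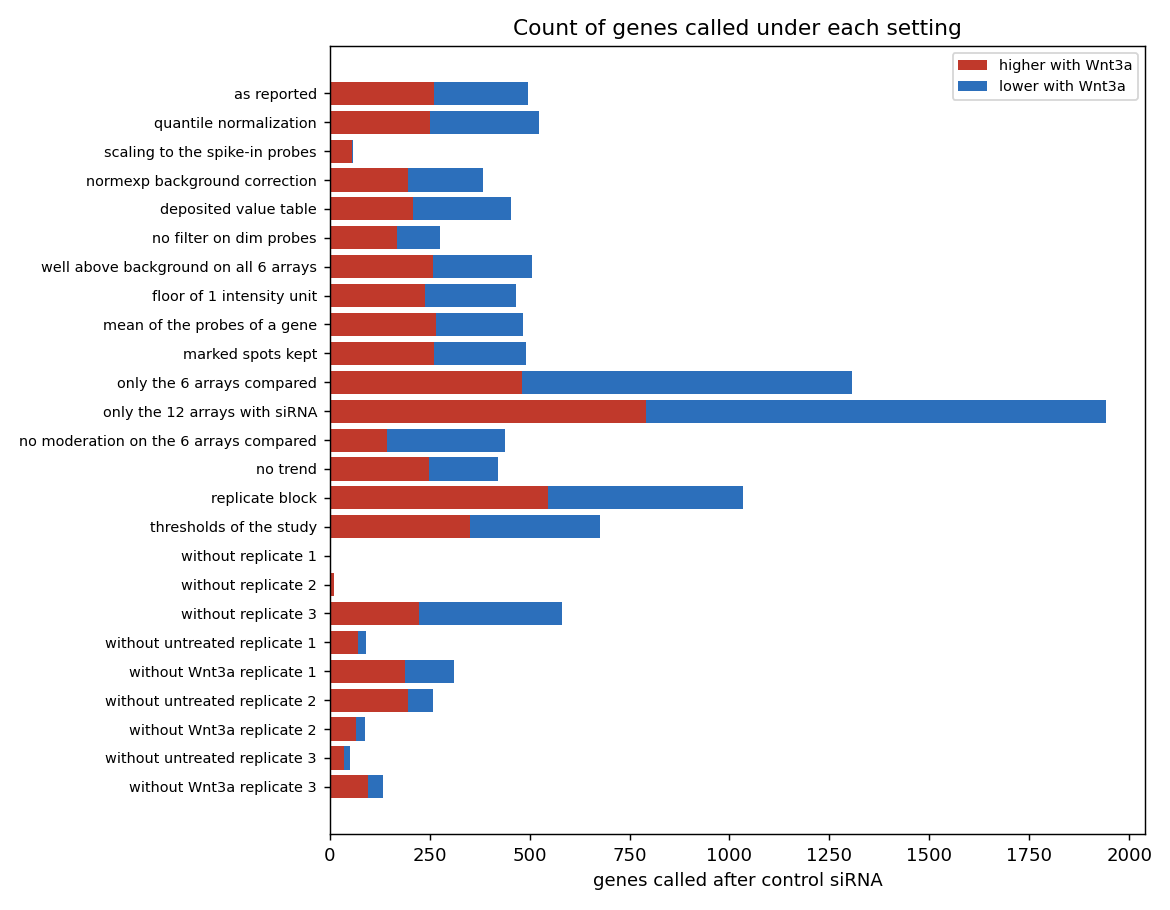
Number of genes called higher and lower with Wnt3a after control siRNA (horizontal axis, genes) under each processing setting (vertical axis); stacked bars give both directions. The bar of the replicate block reaches 1035 genes, that of spike-in scaling 58, and that without replicate 1 of every condition 4.

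Of 15 tested Wnt feedback and direct target genes, 6 rose and none fell, namely RNF43, AXIN2, NKD2, TCF7, LEF1 and DACT1. The list median was 0.28, beside 0.03 over all genes tested, and was 0.06 over the 20 members read without the filter on dim probes. RNF43, a membrane ubiquitin ligase that removes Frizzled receptors, stood at 1.00, 1.10 and 0.81 on the untreated arrays and at 1.92, 1.92 and 2.14 with Wnt3a. The lowest Wnt3a culture lay well above the highest untreated one, a rise of 1.02 (SE 0.11, 2.04-fold; limma, adjusted p = 9.33e-05). AXIN2, a scaffold of the destruction complex and a widely used reporter of the pathway, measured 0.06, 0.16 and −0.03 untreated against 0.68, 0.76 and 0.54. The groups did not overlap and the rise was 0.60 (SE 0.10, adjusted p = 0.00632). A second AXIN2 probe gave 0.49 and was not called (adjusted p = 0.148).

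NKD2, a cytoplasmic inhibitor that binds Dishevelled, rose by 0.71 (SE 0.13, adjusted p = 0.00733), from 1.38, 1.35 and 1.32 to 1.95, 1.96 and 2.26. TCF7, a TCF transcription factor, went from −2.02, −1.84 and −2.28 to −0.65 in each Wnt3a culture, a 2.64-fold rise (adjusted p = 0.00757), while its second probe gave 1.00 and was not called (adjusted p = 0.131). LEF1 rose 1.53-fold and DACT1, another Dishevelled-binding protein, 1.98-fold. Support differed between the 6 genes. RNF43 was called without any single one of the 6 arrays. AXIN2, NKD2 and TCF7 lost their calls, among single arrays, only without untreated replicate 3 (limma, adjusted p = 0.0558, 0.0539 and 0.0612). DACT1 lost its call without any array but untreated replicate 2 (0.0537 to 0.105), and LEF1 without any of the 6 (0.0849 to 0.154) and with normexp (0.0655). The number of called members was thus 4, 5 and 1 without untreated replicate 1, 2 and 3, 4 without each Wnt3a culture, and 2 with spike-in scaling. Among uncalled members, NKD1 differed by 0.71 (adjusted p = 0.072, or 0.0488 with the replicate block), ZNRF3 by 0.12, SP5 by 0.00 and APCDD1 by −0.52.

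**Figure D2:**
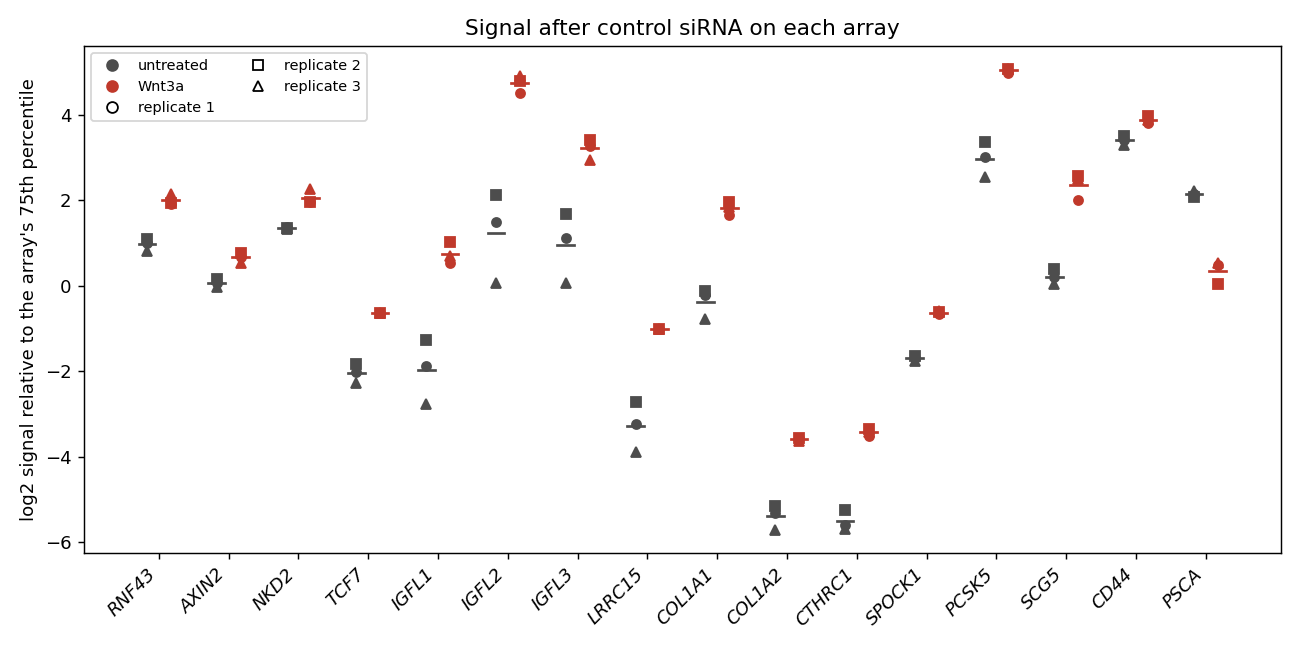
Log2 intensity relative to the array's 75th percentile (vertical axis) of 16 genes on each untreated (grey) and Wnt3a (red) array; circles, squares and triangles are replicates 1, 2 and 3, and bars are group means. In every panel but that of PSCA the 3 Wnt3a values lie above the 3 untreated ones; for RNF43 the lowest Wnt3a value is 1.92 and the highest untreated value 1.10.

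Of the pathway outside this list, 2 of 16 receptors and co-receptors (12.5%), 2 of 18 ligands and inhibitors (11.1%) and 1 of 23 cytoplasmic and nuclear members (4.35%) were called, beside 2.02% of all genes tested. Among the receptors, FZD6, a Frizzled receptor, rose by 0.42 (limma, adjusted p = 0.0186) and LGR4, a receptor for R-spondins, fell by 0.37 (adjusted p = 0.039). The median over these receptors was 0.04, and ran from −0.03 to 0.10 over single arrays left out. With normexp neither gene was called (0.0534 and 0.0729), and LGR4 differed by −0.21 with spike-in scaling. The FZD6 call was kept only without Wnt3a replicate 1 (otherwise 0.0684 to 0.099), and the LGR4 call was lost without any of the 6 arrays (0.0748 to 0.184). Among the ligands, R-spondins and secreted inhibitors the median was 0.28. This median was 0.13 without untreated replicate 2, 0.09 with normexp background correction, 0.12 over the 10 members in the deposited processed values, 0.08 over the 13 whose probes were well above background on all 6 arrays and 0.03 over the 30 read without the filter. WNT5B was not well above background on the untreated arrays, at −6.13, −6.08 and −6.13, and measured −4.76, −4.99 and −5.38 with Wnt3a, which makes it at least 2.02-fold higher (adjusted p = 0.0057), although WNT5B differed by 0.27 with normexp and was not called there (adjusted p = 0.185). For such genes the bound sets the bright group's mean against the detection limit of the dim arrays, or the dim probe's own signal where higher. Of the 13 members well above background on all 6 arrays, none was called higher and 1 lower. WNT11, a ligand known mainly for β-catenin-independent signalling, fell from −0.51, −0.52 and −0.44 to −1.37, −1.74 and −1.31 (adjusted p = 0.0405). No culture overlapped, but the WNT11 call was lost without any of the 6 arrays (0.0738 to 0.206). The replicate block also called WNT5A, a ligand related to WNT5B (0.77, adjusted p = 0.0553, or 0.025 with the block). Of the 23 genes of β-catenin itself, the destruction complex and TCF cofactors, TLE3, a Groucho corepressor, was called, with a rise of 0.84 (adjusted p = 0.0266) that was kept only without untreated replicate 2 (otherwise 0.0723 to 0.135). With the replicate block its relative TLE1 was called lower as well (−0.35, adjusted p = 0.121, or 0.00943 with the block). Their median was 0.03, from −0.03 to 0.09 over single arrays left out. With spike-in scaling none of these receptors, ligands and cytoplasmic members was called, while the models of the 6 and of the 12 siRNA arrays called 4 and 3 receptors and 4 ligands or inhibitors each.

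The largest rise among called genes was that of IGFL2, which belongs to a small family of secreted proteins resembling insulin-like growth factors. IGFL2 stood at 1.49, 2.12 and 0.06 untreated and at 4.51, 4.79 and 4.91 with Wnt3a. Untreated replicate 3 was the lowest of its group, and all Wnt3a cultures lay far above; the rise was 3.51 (SE 0.51, 11.4-fold; limma, adjusted p = 0.0021). IGFL3 measured 1.11, 1.68 and 0.06 against 3.28, 3.40 and 2.95, a 4.79-fold rise (adjusted p = 0.00506). IGFL1 went from −1.88, −1.27 and −2.77 to 0.53, 1.02 and 0.70, a 6.60-fold rise (adjusted p = 0.0307). These were the 3 called genes among 15 tested genes of the IGF axis and the IGFL family, whose median was 0.29. That median was 0.16 without Wnt3a replicate 1, 0.13 with the lower floor and 0.12 with normexp. The replicate block also called IGFLR1, a receptor of IGFL proteins, lower (−0.28, adjusted p = 0.0642, or 0.0207 with the block), and the models of the 6 and of the 12 siRNA arrays called 4 rises each with 1 and 4 falls. All 3 IGFL genes were called with spike-in scaling. In the deposited processed values only 1 rise and 1 fall were called among 13 members. With only the 6 arrays and no moderation, 0 rises and 1 fall were called. IGFL2 and IGFL3 were called without any single array, whereas the IGFL1 call was kept only without untreated replicate 2 (otherwise 0.0638 to 0.148). The list thus had 2 called members without each of the other 5 arrays.

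The 3 IGFL genes lie near each other on chromosome 19. The promoters of IGFL1 and IGFL2, which rose together, and of DIRC3, described further on, are printed from RefSeq (GRCh38.p14, 250 bases before to 50 after the start, 5′ to 3′ on the gene's strand). They lie at chr19:46229492-46229791 on the plus strand, chr19:46147988-46148287 on the plus strand and chr2:217790394-217790693 on the minus strand. The letters CTTTGAT, a form of the sequence that TCF and LEF factors are known to bind, were searched on both strands (ATCAAAG on the other), and capitals mark a match.
IGFL1: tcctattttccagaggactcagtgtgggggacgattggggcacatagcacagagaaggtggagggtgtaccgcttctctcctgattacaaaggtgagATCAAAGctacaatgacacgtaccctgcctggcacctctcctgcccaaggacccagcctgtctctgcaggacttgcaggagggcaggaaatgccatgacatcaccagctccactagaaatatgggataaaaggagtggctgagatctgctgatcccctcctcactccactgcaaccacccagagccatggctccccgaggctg
IGFL2: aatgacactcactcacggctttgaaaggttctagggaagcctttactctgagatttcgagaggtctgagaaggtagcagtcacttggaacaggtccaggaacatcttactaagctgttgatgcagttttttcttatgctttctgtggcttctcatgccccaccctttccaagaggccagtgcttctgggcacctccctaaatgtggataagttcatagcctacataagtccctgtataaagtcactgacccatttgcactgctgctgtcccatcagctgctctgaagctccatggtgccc
DIRC3: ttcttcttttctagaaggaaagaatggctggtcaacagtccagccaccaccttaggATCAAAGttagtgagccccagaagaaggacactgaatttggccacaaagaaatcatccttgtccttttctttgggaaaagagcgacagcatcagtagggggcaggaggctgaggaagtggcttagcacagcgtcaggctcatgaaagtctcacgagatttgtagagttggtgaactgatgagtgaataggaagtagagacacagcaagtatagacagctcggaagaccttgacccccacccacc
IGFL1 had 1 match, beginning at −153 from the start, DIRC3 had 1 match at −194 in the entry shown and none in its other entries, and IGFL2 and IGFL3 had none. Of all 35116 promoters searched, 919 held the letters (2.617%), beside 2 of 59 entries of named genes that rose (3.39%). Those 2 are the IGFL1 and DIRC3 entries printed above, so the printed promoters hold matches more often than the named genes do. In the Wnt feedback list 1 of 14 entries held the letters (7.143%), that of SP5. The match is a description of these windows and was not tested as a binding site.

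Of 36 tested collagen chains 8 rose and none fell. In all 28 were higher with Wnt3a, and the median was 0.26, or 0.15 with normexp and 0.17 over the 30 in the deposited processed values. With only the 6 arrays in the model, 8 were called higher and 2 lower, and with the 12 siRNA arrays 11 and 2. COL1A1, a chain of type I collagen, stood at −0.23, −0.14 and −0.78 untreated and at 1.65, 1.94 and 1.84 with Wnt3a. The groups lay far apart, with a 4.57-fold rise (SE 0.33 on the log2 scale; limma, adjusted p = 0.00283). COL1A2, the other chain of the same trimer, measured −5.32, −5.16 and −5.71 against −3.57, −3.56 and −3.65, a 3.49-fold rise (adjusted p = 0.00103). COL3A1, the fibrillar collagen of soft tissue, rose 2.08-fold (adjusted p = 0.0217). COL5A1, which regulates fibril diameter, rose from 5.26, 5.43 and 4.87 to 6.14, 6.21 and 6.19 (adjusted p = 0.0149). COL5A2 rose by 0.64, COL6A2 by 0.82 and COL16A1 by 0.70, where a second COL16A1 probe gave 0.34 and was not called (adjusted p = 0.779). COL6A3, a microfibril collagen, was not well above background on the untreated arrays and was at least 1.96-fold higher (adjusted p = 0.00283). Of the 34 chains well above background on all 6 arrays, 7 rose.

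COL1A1, COL1A2 and COL6A3 were called without any single one of the 6 arrays. COL3A1 was kept only without untreated replicate 2 (otherwise 0.0597 to 0.129). COL5A1 lost its call without untreated replicate 1 or 3 or Wnt3a replicate 2 or 3 (0.0582 to 0.095), and COL5A2 without untreated replicate 1 or 3 or Wnt3a replicate 3 (0.0506 to 0.0694). COL6A2 and COL16A1 lost theirs without any of the 6 (0.0906 to 0.197 and 0.0591 to 0.0967). The collagen count was therefore 3, 6 and 3 without untreated replicate 1, 2 and 3, and 5, 4 and 3 without Wnt3a replicate 1, 2 and 3, with 3 under spike-in scaling. With normexp the log2 rise of COL1A2 was only 0.63, that of COL6A2 0.32 and that of COL6A3 0.44, all still called, while COL3A1 (0.54) was not (adjusted p = 0.0617). COL4A1, a basement membrane collagen, differed by 0.55 (adjusted p = 0.288, or 0.0415 and called with the 12 siRNA arrays) and COL4A6, the lowest of the list, by −0.71 (adjusted p = 0.114), neither called in the model of all arrays.

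Of 22 tested genes that process or bind collagen, 3 rose, namely BMP1, PCOLCE2 and MRC2, and 1 fell, P3H2, with a median of 0.18. MRC2, an endocytic collagen receptor, stood at 2.75, 3.01 and 2.48 untreated and at 4.03, 4.18 and 4.06 with Wnt3a, without overlap (2.54-fold; limma, adjusted p = 0.00628). Among single arrays, the MRC2 call was lost only without untreated replicate 3 (0.0558). BMP1, the protease that trims procollagen, rose by 0.38, PCOLCE2, its enhancer, by 0.51, and P3H2, a prolyl hydroxylase, fell by 0.47 (a difference of −0.31 with spike-in scaling). The replicate block called 6 upwards and 1 downwards, as against 6 and 2 with the 12 siRNA arrays. Without untreated replicate 1, 2 and 3, 1, 3 and 0 were called upwards, and without Wnt3a replicate 1, 2 and 3, 3, 1 and 2, while the call of P3H2 was kept only without untreated replicate 2 or Wnt3a replicate 1.

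Matrix glycoproteins and proteoglycans had a median of 0.65 over 34 tested genes. Of these 8 rose, 29 were higher and none fell. CTHRC1, a secreted protein of activated fibroblasts, measured −5.60, −5.25 and −5.70 untreated and −3.52, −3.35 and −3.42 with Wnt3a, a 4.25-fold rise (SE 0.29; limma, adjusted p = 0.00156). SPOCK1, a testican proteoglycan, went from −1.69, −1.65 and −1.76 to −0.67, −0.63 and −0.59 with little spread in either group (SE 0.13, adjusted p = 0.000256). MFAP4 rose by 1.29 (adjusted p = 0.00286), and SPARC, a collagen-binding matricellular protein, by 0.71 (adjusted p = 0.00286). FN1, which encodes fibronectin, went from 1.66, 1.94 and 1.37 to 2.93, 2.62 and 2.52 (1.03, adjusted p = 0.0148). HMCN1, THBS2 and DPT were the other called members. With normexp the log2 rise of CTHRC1 was 0.71 in place of 2.09 and that of MFAP4 0.85, both called, and THBS2 was not called (adjusted p = 0.0534).

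CTHRC1, SPOCK1, MFAP4 and SPARC kept their calls without any single array, and HMCN1 (1.06) lost its call only without untreated replicate 3 (0.0583). FN1 was not called without untreated replicate 1 or 3 or Wnt3a replicate 1 or 2 (0.059 to 0.0934). DPT was kept only without untreated replicate 2 (otherwise 0.099 to 0.213), and THBS2 lost its call without any of the 6 (0.0803 to 0.207). The number of called members was 5, 7 and 4 without untreated replicate 1, 2 and 3, and 5, 5 and 6 without Wnt3a replicate 1, 2 and 3, with 4 under spike-in scaling, 17 with only the 6 arrays in the model, 18 with the 12 siRNA arrays and 15 at the thresholds of the study. With the replicate block 11 were called, adding the proteoglycan VCAN (0.71), FBN1, the microfibril protein fibrillin (0.77), and CCDC80 (1.00; adjusted p = 0.0427, 0.00345 and 0.0372 with the block).

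Matrix proteases and their partners rose in 9 of 23 tested genes, with none lower among the called, 21 higher in all and a median of 0.55. PCSK5, a proprotein convertase, stood at 3.00, 3.36 and 2.55 untreated and at 4.99, 5.06 and 5.07 with Wnt3a. The Wnt3a cultures lay within a narrow range far above the others (4.21-fold, SE 0.23; limma, adjusted p = 0.000109). Another PCSK5 probe gave 2.20 and was called, while one more gave 0.12 and was not. SCG5, the chaperone of the convertase PCSK2, went from 0.20, 0.38 and 0.03 to 2.00, 2.56 and 2.48 (4.41-fold, adjusted p = 0.00286). MMP7, the matrilysin, rose from 5.17, 5.56 and 4.69 to 6.81, 6.59 and 6.67 (2.93-fold, adjusted p = 0.00632). MMP2, a gelatinase, rose 2.14-fold and MMP9, the other gelatinase, by 0.99, beside called rises of TIMP2 and ADAM19. MMP3, a stromelysin, and MMP13, a collagenase, were not well above background untreated and were at least 3.86-fold and at least 2.97-fold higher (adjusted p = 0.0252 and 0.0336). With normexp MMP3 differed by 0.50 and MMP13 by 0.61, and neither was called (adjusted p = 0.296 and 0.107). Their probes passed the filter only through brighter conditions, which by itself favours a rise. Of the 19 members well above background on all 6 arrays, 8 rose.

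PCSK5 and SCG5 kept their calls without any single array. MMP2 and MMP7 lost theirs only without untreated replicate 3 (both 0.0583), MMP9 without untreated replicate 1 or 3 or Wnt3a replicate 2 or 3 (0.06 to 0.0894), and MMP3, MMP13 and ADAM19 without any of the 6 (0.0558 to 0.116, 0.0666 to 0.159 and 0.059 to 0.179). TIMP2 was kept only without Wnt3a replicate 1 (otherwise 0.0536 to 0.203), and was not called with normexp (0.0698). For the whole list 4, 5 and 2 members were called without untreated replicate 1, 2 and 3, and 6, 4 and 4 without Wnt3a replicate 1, 2 and 3, with 6 under spike-in scaling and 5 without the filter on dim probes. With the block 11 were called, adding MMP24, a membrane-bound matrix metalloproteinase (0.42), and PLAUR, the urokinase receptor (0.59; adjusted p = 0.0335 and 0.0315 with the block). With only the 6 arrays 13 were called higher and 1 lower, and with the 12 siRNA arrays 15 and 1.

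Among 29 genes of activated fibroblasts and smooth muscle, 3 rose, LRRC15, FAP and CCN1, and 1 fell, S100A4. That is 13.8% called, beside 2.02% of all genes tested, and the list median was 0.42. LRRC15, a membrane protein of activated fibroblasts, stood at −3.23, −2.73 and −3.89 untreated and at −1.01, −1.02 and −1.02 with Wnt3a. The 3 Wnt3a cultures were almost equal, 4.81-fold above the untreated mean (SE 0.24; limma, adjusted p = 9.87e-05). FAP, a serine protease of the same cells, rose from −2.80, −2.46 and −3.25 to −0.91, −1.18 and −1.33 (3.24-fold, adjusted p = 0.00923). Among single arrays, the FAP call was lost only without untreated replicate 3 (0.0714). CCN1, a matricellular protein, rose by 0.63 and S100A4, a calcium-binding protein, fell by 0.45, each call being lost without any of the 6 arrays (0.0686 to 0.193 and 0.0704 to 0.166), and S100A4 was not called with normexp (0.0534) and differed by −0.29 with spike-in scaling. Untreated replicate 3 left 1 called rise when left out, each of the other 5 arrays left 2, and no fall was called without any of them. The replicate block called 7 upwards and 1 downwards, the models of only the 6 and of the 12 siRNA arrays 12 and 1. ACTA2, the smooth muscle actin, differed by 0.17 (adjusted p = 0.209) and was not called. Among 12 transcription factors and markers of epithelial to mesenchymal transition, 1 was called (8.33%, beside 2.02% of all genes tested). CD44, a hyaluronan receptor, went from 3.40, 3.49 and 3.30 to 3.80, 3.96 and 3.87 (1.40-fold, adjusted p = 0.00273), without overlap and without any single array deciding the call, while a second probe gave 0.09 and was not called (adjusted p = 0.919), nor was the mean of both (0.28, adjusted p = 0.0776). It was not called with spike-in scaling, the block called 2 members, the models of the 6 and of the 12 siRNA arrays 3 and 6, and the median was 0.33. SNAI1 (−0.25), TWIST1 (0.36), CDH2 (−0.04, or 0.12 with spike-in scaling) and VIM (−0.06, or 0.10 with spike-in scaling) were not called.

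**Figure D3:**
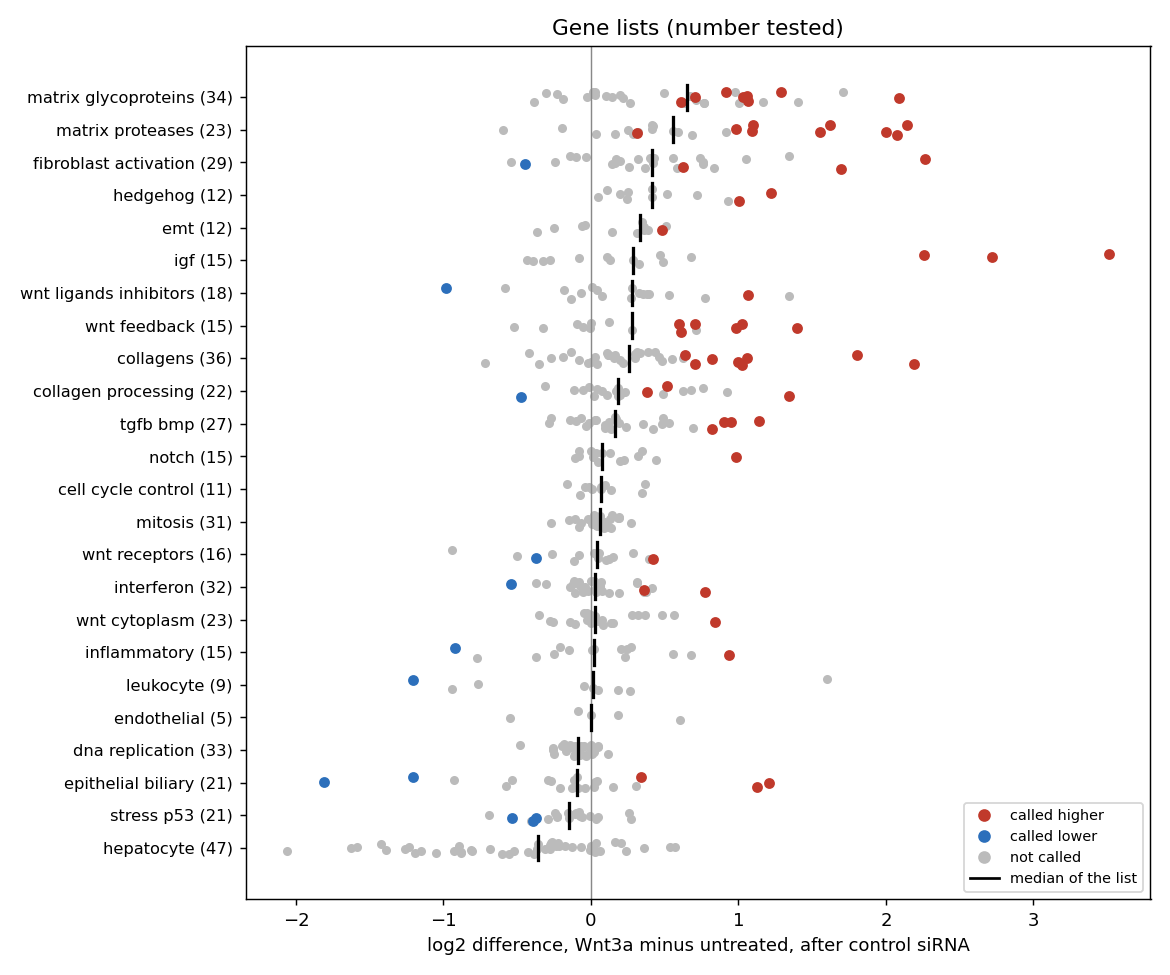
Log2 difference, Wnt3a minus untreated after control siRNA (horizontal axis), of every tested member of each gene list (vertical axis). Red dots were called higher, blue dots lower and grey dots not called, and black bars are list medians, highest for the matrix glycoproteins at 0.65 and lowest for the hepatocyte markers at −0.36.

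Of other signalling pathways, 4 of 27 TGF-β and BMP genes (14.8%), 2 of 12 Hedgehog genes (16.7%) and 1 of 15 Notch genes (6.67%) were called, beside 2.02% of all genes tested. The 4 TGF-β and BMP genes rose: TGFB3, BMP7, NOG and LTBP2. NOG, which encodes the BMP antagonist noggin, rose by 0.95 (limma, adjusted p = 0.0094), TGFB3 by 0.90 and LTBP2, a latent TGF-β binding protein, by 0.82. BMP7 was at least 2.13-fold higher (adjusted p = 0.0156), with untreated arrays not well above background. Of the 23 TGF-β and BMP genes well above background on all 6 arrays, 3 were called higher. With normexp BMP7 (0.29) and LTBP2 (0.28) were not called (adjusted p = 0.143 and 0.203), and NOG rose by 0.63. TGFB1 differed by 0.16 and was not called, and the list median was 0.16. NOG lost its call without Wnt3a replicate 2 or untreated replicate 3 (0.0649 and 0.0675), BMP7 without untreated or Wnt3a replicate 1 or 3 (0.0612 to 0.0805), TGFB3 without untreated replicate 1 or 3 or Wnt3a replicate 2 or 3 (0.0721 to 0.157), and LTBP2 without any but Wnt3a replicate 1 (0.0547 to 0.173). The list then held 1, 3 and 0 calls without untreated replicate 1, 2 and 3, and 3, 1 and 1 without Wnt3a replicate 1, 2 and 3, and none with spike-in scaling. The models of the 6 and of the 12 siRNA arrays called 6 and 10.

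All 12 tested Hedgehog genes were higher with Wnt3a, as were 13883 of all 24648 genes tested. The median was 0.41 (0.24 with normexp), and 2 were called. IHH, the Indian hedgehog ligand, stood at 2.00, 2.23 and 1.78 untreated and at 3.28, 3.17 and 3.23 with Wnt3a, a 2.34-fold rise (limma, adjusted p = 0.00923). GLI2, a transcription factor of the pathway, went from −3.73, −3.59 and −4.00 to −2.80, −2.59 and −2.92 (adjusted p = 0.0202). Neither gene's groups overlapped, but the other GLI2 probes, at 0.41 and 0.73, were not called (adjusted p = 0.554 and 0.583), nor was the mean of its probes (0.72, adjusted p = 0.144), and with normexp GLI2 rose by 0.54. Over single arrays left out, IHH lost its call only without untreated replicate 3 (0.0677). GLI2 lost its call without any but untreated replicate 2 (0.0501 to 0.118). Thus 1, 2 and 0 were called without untreated replicate 1, 2 and 3, and 1 without each Wnt3a culture. The replicate block called 4, adding GLI1 and BOC. Of the 15 Notch genes, with a median of 0.07 that ran from 0.08 to 0.13 over single arrays left out, NOTCH4 alone was called (0.98, or 0.42 with normexp; adjusted p = 0.0324), a call lost without any of the 6 arrays (0.0613 to 0.156) and with spike-in scaling. NOTCH2 differed by 0.01 and the modulator LFNG by −0.11, although a second LFNG probe gave 0.94 (adjusted p = 0.0685).

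None of 47 tested hepatocyte markers was called. Of all genes tested 2.02% were, a share at which such a list would hold few calls or none. In 26 of the 47 the groups did not overlap (23.5% of all genes tested). The list median was −0.36, or −0.20 with spike-in scaling and −0.54 over the 44 in the deposited processed values. Of the 47, 10 were higher, beside 13883 of all 24648 genes tested. The count of calls depended on the model. It was 1 higher and 12 lower with only the 6 arrays, 1 and 11 with the 12 siRNA arrays, and 0 and 8 at the thresholds of the study. At an adjusted p by limma of 0.0596, ALB, which encodes albumin, came nearest among the falls, with 7.84, 7.68 and 7.79 untreated and 6.92, 6.07 and 6.87 with Wnt3a. The groups did not overlap, and the difference was −1.15 (SE 0.31). SULT2A1, a sulfotransferase, differed by −2.06 (adjusted p = 0.086), with −0.42, −0.59 and −0.34 against −2.30, −3.41 and −1.83. The fetal protein AFP differed by 0.57 (adjusted p = 0.0601). With the replicate block these 3 genes were called (adjusted p = 0.0262, 0.0408 and 0.0485). APOB, an apolipoprotein, differed by −0.88 (adjusted p = 0.343), HNF4A by −0.36 and FGA by −1.19 (0.079).

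Epithelial, biliary and progenitor markers went both ways: of 21 tested, 3 rose and 2 fell (23.8% called, beside 2.02% of all genes tested). The median of −0.09 became 0.07 with spike-in scaling and −0.05 with normexp. PSCA, a membrane-anchored surface antigen, fell from 2.15, 2.07 and 2.22 to 0.48, 0.03 and 0.52 (3.50-fold lower; limma, adjusted p = 0.00542), and every Wnt3a culture lay below the lowest untreated one. AGR2, a disulphide isomerase of secretory epithelia, went from 1.22, 1.34 and 1.15 to 0.14, −0.16 and 0.13 (adjusted p = 0.0325). CLDN2, a pore-forming claudin, rose by 1.20 (adjusted p = 0.0381), ITGB4, an integrin of hemidesmosomes, by 1.13 (adjusted p = 0.00757) and TJP1, a tight junction scaffold, by 0.34 (adjusted p = 0.025). KRT19 (−0.04, or 0.12 with spike-in scaling) and SOX9 (−0.29) were not called. PSCA kept its call without any single array. AGR2 lost it without any of the 6 (0.0662 to 0.161), ITGB4 without Wnt3a replicate 2 or untreated replicate 3 (0.0603 and 0.0675), CLDN2 without any but untreated replicate 2 (0.0979 to 0.19) and TJP1 without untreated replicate 1 or 3 or Wnt3a replicate 2 or 3 (0.0886 to 0.116). The count of called rises was 1, 3 and 0 without untreated replicate 1, 2 and 3 and 2, 0 and 1 without Wnt3a replicate 1, 2 and 3. With spike-in scaling 0 rises and 1 fall, that of PSCA, were called. CLDN2, ITGB4 and TJP1 then differed by 1.36, 1.29 and 0.50, and AGR2 by −1.05.

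Among the 15 largest falls by the naming rule were PSCA and PLIN5, a lipid droplet protein, at −3.25, −3.18 and −3.13 untreated and −4.35, −5.41 and −4.87 with Wnt3a (limma, adjusted p = 0.022). S100P, a calcium-binding protein of tumour epithelia, fell from −1.07, −1.58 and −0.95 to −2.74, −2.91 and −2.87 (3.11-fold, adjusted p = 0.0103). CTSZ, a lysosomal protease, fell by 1.51 (adjusted p = 0.0309), and MARCO, a scavenger receptor, by 1.20 (adjusted p = 0.0425). In none of these did the groups overlap. The falls not listed above ran from 1.39 for PGLYRP2 to 1.08 for LDHD, with FA2H, BEST2, LY6D, ATP2B2, TMEM38A, PLCXD1 and C1QTNF1-AS1 between them. S100P lost its call without untreated replicate 1 or 3 or Wnt3a replicate 2 (0.0605 to 0.0691), PLIN5 without any but Wnt3a replicate 1 (0.0627 to 0.138), CTSZ without any but untreated replicate 2 (0.0503 to 0.16) and MARCO without any of the 6 (0.0638 to 0.217). Among the 15 largest rises were also some outside the lists, LINC03033, PI15, a secreted protease inhibitor, IL11, a cytokine, MYCN, a transcription factor, and HTRA3, a serine protease. IL11 stood at −3.65, −3.49 and −3.53 untreated and at −1.81, −1.33 and −1.57 with Wnt3a (3.97-fold, adjusted p = 0.0176). PI15 rose 3.79-fold (adjusted p = 0.00733), MYCN 3.55-fold (0.0199) and HTRA3 3.80-fold (0.013). With normexp the log2 rises were 1.30 for IL11, 1.16 for PI15, 0.96 for MYCN and 0.78 for HTRA3, and the log2 differences were −0.80 for PLIN5, −0.61 for MARCO, −0.86 for FA2H and −0.44 for ATP2B2, all called, whereas PGLYRP2, LDHD and PLCXD1 were not (adjusted p = 0.0528, 0.0509 and 0.092). A second HTRA3 probe gave 0.46 and was not called (adjusted p = 0.736), the mean of both was 1.19, and the log2 rise of HTRA3 went from 1.93 to 2.53 without Wnt3a replicate 2. Over single arrays left out, PI15 lost its call only without untreated replicate 3 (0.0612). IL11 lost its call without untreated replicate 1 or 3 or Wnt3a replicate 2 or 3 (0.0703 to 0.102). MYCN lost its call without any but Wnt3a replicate 1 (0.0556 to 0.115), and HTRA3 without untreated replicate 2 or 3 or Wnt3a replicate 3 (0.0556 to 0.0721).

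None of 33 DNA replication genes, 31 mitosis genes or 11 D cyclins and cyclin-dependent kinase inhibitors passed (limma, adjusted p under 0.05). Of all genes tested 2.02% passed, a share at which lists of this size would hold few calls or none. With only the 6 arrays 1 DNA replication gene was called lower, and 1 with the 12 siRNA arrays. The list medians, in the same order, were −0.09 (0.07 with spike-in scaling), 0.06 and 0.07. Over single arrays left out they ran from −0.13 to 0.01, from 0.00 to 0.12 and from −0.03 to 0.06. MYC, a growth-promoting transcription factor, differed by −0.09 (0.07 with spike-in scaling) and BIRC5, a mitotic inhibitor of apoptosis, by 0.08. Of 21 genes of p53, endoplasmic reticulum and heat stress, 3 fell (14.3%, beside 2.02% of all genes tested called either way). They were ATF3 (−0.37; limma, adjusted p = 0.00757), TRIB3 (−0.39) and ASNS (−0.54, adjusted p = 0.026). The list median was −0.15, or 0.01 with spike-in scaling. ATF3 and TRIB3 are stress-induced regulators and ASNS makes asparagine. ATF3 was read from its brightest probe, and its other 3 probes were not called, at −0.41, 0.22 and −0.34. The mean of all ATF3 probes, the brightest included, was not called either (−0.23, adjusted p = 0.205). With spike-in scaling ATF3 and TRIB3 differed by −0.21 and −0.23. Among single arrays ATF3 lost its call only without untreated replicate 3 (0.0658), and TRIB3 and ASNS without any of the 6 (0.0675 to 0.127 and 0.0665 to 0.103), which left 1 call without each of the other arrays. The replicate block called 5 falls, the models of the 6 and of the 12 siRNA arrays 6 each, and spike-in scaling none.

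The median of 32 interferon-stimulated genes was 0.03, from −0.02 to 0.05 over single arrays left out. Of them 9.38% were called, beside 2.02% of all genes tested. GBP1 (0.77) and IFI44L (0.36) rose and IFIH1, an RNA sensor, fell by 0.54. All 3 were called without untreated replicate 2, 1 rise and 1 fall without Wnt3a replicate 1, and none without the other 4 arrays (limma), and IFI44L was not called with normexp (adjusted p = 0.0554). The block called 2 rises and 3 falls, the model of the 12 siRNA arrays 3 and 3, and spike-in scaling none. Among 15 inflammatory chemokines and cytokines, CXCL3, a neutrophil chemokine, rose from −0.76, −0.46 and −1.16 to 0.15, 0.14 and 0.15 (adjusted p = 0.0041), and IL1B, which encodes interleukin 1β, fell by 0.92 (adjusted p = 0.0186), or by less with normexp (−0.40). Called members made up 13.3% of the list, beside 2.02% of all genes tested. The list median was 0.02, from −0.13 to 0.07 over single arrays left out. Models of the 6 and of the 12 siRNA arrays called 2 rises each with 2 and 4 falls. Spike-in scaling called none. CXCL3 was called without any single array and IL1B was not called without any of the 6 (0.0537 to 0.087).

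Markers of other cell types were read on the same arrays. Of 8 endothelial markers, CLDN5, EMCN, TEK and TIE1 were not well above background on any of the 6 arrays. None of the 5 tested was called (median 0.00, from −0.01 to 0.11 over single arrays left out), while 1 was called lower with only the 6 arrays and with the 12 siRNA arrays. TEK, tested but at the floor on all 6 arrays, sets that median. It was 0.05 over the 4 members well above background on all 6 arrays and 0.19 with the lower floor. KDR, a receptor of vascular endothelial growth factor, stood at 1.58, 1.66 and 1.44 untreated and at 1.01, 1.10 and 0.92 with Wnt3a, without overlap and not called (−0.55; limma, adjusted p = 0.211). PECAM1, an adhesion molecule of endothelium, went the other way, from −4.09, −3.96 and −4.37 to −3.54, −3.48 and −3.58, also without overlap and not called (0.61, adjusted p = 0.254). CDH5 (0.19) and VWF (−0.09) overlapped. Of 12 leukocyte markers 11 were on the array, and the B cell marker MS4A1 was not well above background. CD14, a monocyte marker, stood at 1.45, 1.61 and 1.20 against 1.24, 1.43 and 1.44, and these groups overlapped. MARCO was the 1 called member of 9 tested, whose median was 0.02 (−0.03 with quantile normalization, and from −0.09 to 0.12 over single arrays left out), while CSF1R, the receptor of a macrophage growth factor, differed by 1.60 (adjusted p = 0.0617), from −3.94, −3.90 and −3.92 to −2.59, −2.20 and −2.16. LAIR1, an inhibitory receptor of leukocytes, at −0.70, −0.70 and −0.76 against −1.41, −1.69 and −1.35, and MRC1, the macrophage mannose receptor, at −4.05, −4.26 and −4.05 against −4.72, −5.35 and −5.11, were lower without overlap and not called (adjusted p = 0.249 and 0.193). The list had 1 member called higher and 2 lower with only the 6 and with the 12 siRNA arrays, 1 and 1 with normexp, and 1 and 0 with spike-in scaling. The part of such cells in the results was not tested.

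A fixed set of further genes that the study dealt with by name was followed as well, beside those in the lists. Of that set CD44, PI15, LEF1 and FN1 were called. HAPLN1, a hyaluronan link protein, differed by 0.98 (limma, adjusted p = 0.439) and IGFBP5, an insulin-like growth factor binding protein, by 1.05 (adjusted p = 0.201). Both gained a call with only the 6 arrays (adjusted p = 0.0158 and 0.0209) and with the 12 siRNA arrays (0.00402 and 0.00312). The secreted Wnt inhibitors SFRP1 (0.53), SFRP2 (0.01, or −0.09 with quantile normalization) and DKK1 (−0.32), the receptors FZD1 (0.03) and FZD7 (0.15), the proteoglycan GPC3 (0.17) and the laminin chain LAMC1 (0.01) were not called, nor did they gain a call under any alternative. LGR5, GGT1, WNT2 and PROM1 were not tested.

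The same Wnt3a treatment had been given to untransfected cells, on other arrays of the same slides. There 1335 genes were called (5.42%), 771 upwards (3.13%) and 564 downwards (2.29%), or 2797 with the replicate block. Of the 497 genes called after control siRNA, 261 were also called in untransfected cells in the same direction, which is 52.5% of the former and 19.6% of the latter. The sign was the same for 484 of 497 genes (97.4%), beside 66.2% of all genes tested. The median size in the direction of the call was 0.61 after control siRNA and 0.45 without transfection, for genes chosen on the former, which by itself favours the larger value there. IGFL2 differed by 4.15 in untransfected cells, COL1A1 by 1.87, CTHRC1 by 1.86, LRRC15 by 3.13, PCSK5 by 2.37 and PSCA by −1.77. The gene CTSZ, called lower after control siRNA, differed by 0.73 in untransfected cells, and HTRA3 by 0.09.

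The difference between the responses was tested for every gene, and none of 24648 was called (0%; limma). At an unadjusted p under 0.05 the count was 1181, without the filter on dim probes 8 genes were called, and with the block 0. Without Wnt3a replicate 1 of the control siRNA cells 1 probe without a gene name, A_33_P3222598, was called. For RNF43 the difference was 0.29 (adjusted p = 1), for IGFL2 −0.64 (SE 0.72, adjusted p = 1) and for LRRC15 −0.87 (SE 0.34, adjusted p = 0.984). Between control siRNA and untransfected cells without Wnt3a 5527 genes differed (22.4%), a comparison in which slide column and transfection cannot be told apart.

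CTNNB1 siRNA was the other state compared, in which β-catenin was depleted. CTNNB1 stood at 0.26, 0.36 and 0.52 after CTNNB1 siRNA and at 0.33, 0.53 and 0.79 when Wnt3a was added, all lower than the 3.35 to 3.70 of the 6 control siRNA arrays. In these cells Wnt3a gave 10 called genes (0.0406%), 9 upwards (0.0365%) and 1 downwards (0.00406%), or 37 with the replicate block. Of the 497 genes called after control siRNA, 8 were also called there, among them LRRC15 (1.39), SPOCK1 (0.81) and MRC2 (1.30). The sign was the same for 445 of 497 (89.5%), beside 67.3% of all genes tested, and the median size in the direction of the call was 0.26 against 0.61, for genes chosen on the latter, a choice that by itself favours the larger value there. List medians differed in both directions. For Wnt feedback genes the median was 0.01 after CTNNB1 siRNA, 0.28 after control siRNA and 0.22 in untransfected cells, and for collagens 0.04, 0.26 and 0.21 in the same order. Matrix glycoproteins had 0.18, 0.65 and 0.70, matrix proteases 0.33, 0.55 and 0.63, and genes that process or bind collagen 0.22, 0.18 and 0.36. Hepatocyte markers had −0.65, −0.36 and −0.83. For proliferation genes the median was lowest after control siRNA, with 0.39, −0.09 and 0.27 for DNA replication, 0.23, 0.06 and 0.31 for mitosis and 0.15, 0.07 and 0.15 for D cyclins and inhibitors. The median difference of responses (control siRNA minus CTNNB1 siRNA) was −0.47 for DNA replication genes, the largest in size of any list. These medians carry no test of their difference.

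**Figure D4:**
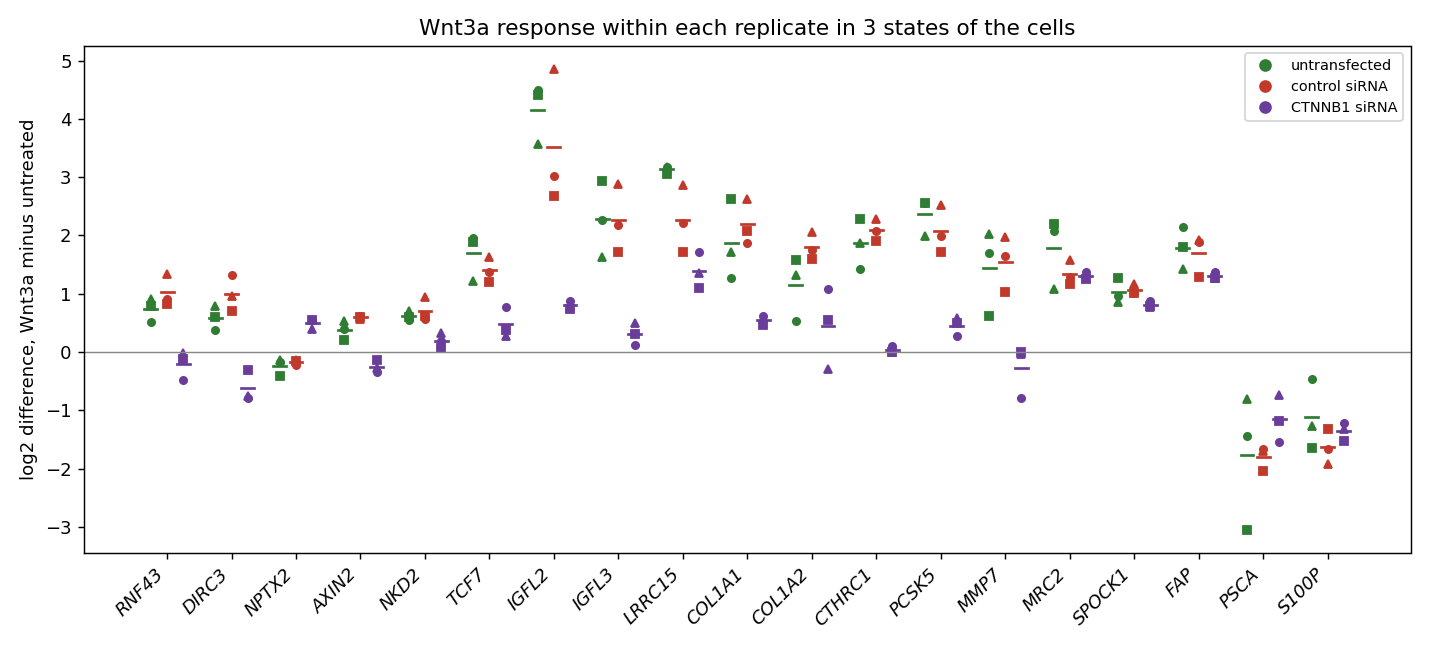
Log2 difference, Wnt3a minus untreated, within each replicate number (vertical axis) for a set of genes in untransfected cells (green), after control siRNA (red) and after CTNNB1 siRNA (purple); points are replicates and bars their means. RNF43 has means of 0.74, 1.02 and −0.21 in these states, and MRC2 of 1.78, 1.35 and 1.30.

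The difference from the response after CTNNB1 siRNA was called for 4 genes (0.0162%; limma, adjusted p under 0.05), 3 of them higher (0.0122%), with RNF43 and DIRC3 described here, and NPTX2 lower (0.00406%), beside 819 at an unadjusted p under 0.05. The replicate block called 9 and spike-in scaling 0. RNF43 rose by 1.02 after control siRNA and differed by −0.21 after CTNNB1 siRNA, where it stood at 0.33, 0.25 and 0.33 untreated and −0.15, 0.13 and 0.32 with Wnt3a. In untransfected cells it went from 1.10, 0.94 and 0.85 to 1.62, 1.72 and 1.76. The difference of responses was 1.23 (SE 0.15, adjusted p = 0.00188).

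DIRC3, a long non-coding RNA whose promoter is printed above, measured −5.74, −5.18 and −5.44 untreated and −4.41, −4.48 and −4.49 with Wnt3a after control siRNA (0.99; limma, adjusted p = 0.00757). On the untreated arrays it was well above background on 2 of 3, and the call was lost without untreated replicate 1 or 3 (0.0666 and 0.0543) and with normexp (0.26, adjusted p = 0.123). After CTNNB1 siRNA it went from −5.33, −5.82 and −5.36 to the detection floor of −6.13 on all Wnt3a arrays, and with the floor in place of those levels the responses differed by 1.61. That arm has no spread of its own, so the adjusted p of 0.0289 rests partly on the floor. NPTX2, a secreted pentraxin, was not called after control siRNA (2.04, 1.99 and 2.09 against 1.82, 1.84 and 1.95). It rose after CTNNB1 siRNA, from 2.12, 2.11 and 2.23 to 2.68, 2.65 and 2.62 (0.50, adjusted p = 0.00575), a difference of −0.67 (SE 0.09, adjusted p = 0.00575).

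Leaving out replicate 1, 2 or 3 of every condition gave 1, 0 and 11 called differences. RNF43 and NPTX2 were called without each of the 12 single arrays, but not without replicate 1 (limma, adjusted p = 0.417 and 1), without replicate 2 (both 0.797) or with spike-in scaling (0.584 and 0.892). With that scaling the difference of RNF43 grew from 1.23 to 1.52 while that of NPTX2 shrank from −0.67 to −0.38. DIRC3 was called without control siRNA replicate 2 or CTNNB1 siRNA replicate 2, and not without any other single array (adjusted p from 0.0654 to 0.16), with quantile normalization (0.0922), with spike-in scaling (0.626) or without replicate 1, 2 or 3 of every condition (1, 0.797 and 0.415). The count was 2 without control siRNA replicate 1, CTNNB1 siRNA replicate 1, either Wnt3a replicate 2 or any array of replicate 3. AXIN2 differed by 0.85 between the responses and was not called (SE 0.15, adjusted p = 0.0528), nor were CTHRC1 (2.05, adjusted p = 0.175), IGFL2 (2.71, adjusted p = 0.594) or COL1A1 (1.65, adjusted p = 0.701). SPOCK1 (0.26), MRC2 (0.04) and FAP (0.40) had small differences that were not called either.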

How the data were processed

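RNA of HepaRG cells was measured on 24 1-colour Agilent arrays, 3 for each of 8 conditions, and 6 arrays make up the comparison of Wnt3a with no treatment after control siRNA. The authors deposited each array's scanner intensity, made with Agilent Feature Extraction (10.7.3.1 in the submitters' processing notes, 10.7.1.1 in the file headers, which name hg19 as array build). The processed signal was divided by each array's 75th percentile of it, floored at 1.43% of that percentile (−6.13 in log2, the median over arrays of the lowest signal well above background), put on the log2 scale and averaged over the spots of a probe. Outlier flags of the scanner removed spots, so 13 values were missing in the 6 arrays, and 2 spots were saturated. A probe had to be well above background throughout 1 condition or more, as 31067 of 50683 were. Their accessions were named through RefSeq (28174 probes had a symbol), and a gene with several probes was read from its brightest, giving 24648 genes tested, 16001 with a symbol and 8647 without. Of 4839 genes with several kept probes, 135 had some called and some not, 22 had all called and 0 were called both ways.

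The linear model held all 24 arrays with 1 term per condition (R 4.3.3, limma 3.58.1 with a trend in the prior variance, data.table in version 1.17.8; Python 3.11.15 and matplotlib 3.10.9 for figures), with Benjamini-Hochberg adjustment over all genes and a threshold of 0.05. The pipeline was tested on simulated data. Replicate numbers come from the labels. Same-numbered untreated and Wnt3a arrays deviated together from their group means (r from 0.42 to 0.51 across genes, against −0.34 to −0.11 for other pairs), every pair passing the 0.1 set for pairing, so the replicate block is given beside the counts of calls that it changes. The highest correlation within a group was 0.9945, and the median SD was 0.12 untreated and 0.15 with Wnt3a.

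The authors also deposited processed values of 25443 probes on a log2 scale, in which every probe had a median of 0 over the arrays. Column medians were −0.003885, 0.008152 and −0.001096 for untreated and 0.002411, 0.004899 and −0.01554 for Wnt3a replicates 1, 2 and 3. Against the scanner values centred the same way, its columns correlated at 0.926 to 0.988 with slopes near 1 and the same direction. The study reports that array features were filtered for being unflagged and significant. Whether that filter gives these 25443 probes was not tested. The processed values served as an alternative.

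The members and gene lists were chosen with earlier results of these data known. Named were the 15 largest rises and 15 largest falls among called genes with a symbol that moved the same way in all pairs and were well above background on all 6 arrays, called members of the lists, genes the study named, and the smallest adjusted p in each difference, where called. Listed genes whose probes were not kept, such as LGR5, LOX, THY1 and NOTUM, were not tested. Alternatives were quantile normalization, spike-in scaling, normexp with an offset of 50 (on the median signal, since the files used hold no mean signal), the deposited processed values, other filters, floors, probe rules and sets of arrays, no moderation, no trend, the replicate block, the thresholds of the study (unadjusted p under 0.01 with a fold above 1.5 or below 0.7) and leaving out arrays or replicate numbers. Results of some items are not reported here.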

Additional observations from a re-analysis of the deposited data

Results flagged for a closer look

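The Wnt3a response differed between control siRNA and CTNNB1 siRNA cells for the following genes by the test of the difference itself (limma, adjusted p under 0.05). The log2 differences, control siRNA minus CTNNB1 siRNA, were 1.23 for RNF43, 1.61 for DIRC3 and −0.67 for NPTX2. For DIRC3 the Wnt3a arrays after CTNNB1 siRNA were at the detection floor, so that value rests partly on the floor, and for NPTX2 the response after control siRNA was −0.17.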

How the results depend on the processing

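Of 119 named genes, 93 were called, and all 93 kept their direction under every alternative that measured them (85 in the deposited values, 82 with all 6 arrays well above background), but only RNF43 kept its call under all of them (limma, highest adjusted p = 0.0484). Of these called genes, 0 lost the call with the replicate block, 63 with spike-in scaling, 91 without replicate 1 of every condition and 75 without untreated replicate 3. The count of 497 (262 higher, 235 lower) became 58 (57 and 1) with spike-in scaling, 275 (169 and 106) without the filter on dim probes, 1307 (481 and 826) with only the 6 arrays, 1943 (791 and 1152) with the 12 siRNA arrays and 1035 (546 and 489) with the replicate block. With only the 6 arrays and no moderation, 438 were called, 144 higher. Leaving out arrays or replicate numbers gave 4 to 582 in all, 4 to 224 higher and 0 to 358 lower, and the cause was not tested. With quantile normalization it was 524, with normexp 383, with the deposited processed values 453 and with the thresholds of the study 676 (2.74%). The 0 differences from untransfected cells became 8 without the filter, with 0 to 1 over arrays left out. The 4 differences from CTNNB1 siRNA became 0 with spike-in scaling, 43 with the 12 arrays compared and 9 with the replicate block, with 0 to 11 over arrays left out. Among the 119, the block called ALB and changed no other call. Outside them it added calls to many genes, among them list members given beside their lists. Of the 26 named genes not called, ALB, HAPLN1 and IGFBP5 gained a call with only the 6 arrays, and COL4A1 too with the 12 siRNA arrays. Signs turned only in genes that were not called: with spike-in scaling CDH2 (0.12), KRT19 (0.12), LFNG (0.0522), MYC (0.0669) and VIM (0.10), with normexp LAMC1 (−0.004), NOTCH2 (−0.0066) and SFRP2 (−0.0252), SFRP2 also with quantile normalization (−0.0879) and the deposited values (−0.0881), and LFNG with the mean of its probes (0.42). Over arrays or replicate numbers left out, FZD1 ran from −0.0455 to 0.115, GPC3 from −0.0513 to 0.498, KRT19 from −0.0798 to 0.0222, LAMC1 from −0.014 to 0.0558, NOTCH2 from −0.0202 to 0.036, SFRP2 from −0.1043 to 0.169 and VIM from −0.167 to 0.0614. The cause was not tested. Signal over background limits genes near the floor.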

Other observations

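The following genes lay outside the naming rule and were chosen after their values were seen. IL1RL1, the receptor of interleukin 33, measured −3.44, −3.74 and −3.33 untreated and −5.58, −6.09 and −5.78 with Wnt3a, where it was well above background on 1 of 3 arrays (limma, adjusted p = 0.0266). Its difference of −2.31 therefore rests on dim values, and ran from −2.49 to −0.79 over the alternatives. PLIN1, a lipid droplet protein like PLIN5, was at least 2.14-fold lower (adjusted p = 0.026), and differed by −0.29 with normexp. PRDM1, a transcriptional repressor, was well above background on 1 of 3 untreated arrays and measured −6.04, −5.84 and −6.13 there against −4.52, −4.82 and −2.64 (adjusted p = 0.0116). Its rise of 2.01 rests on dim values too, and ran from 0.59 to 2.50 over the 22 alternatives that measured it. The calls of IL1RL1 and PLIN1 were lost without any of the 6 arrays (0.0547 to 0.129 and 0.0638 to 0.107), and that of PRDM1 without untreated replicate 1 or 3 (0.063 and 0.0675). Of IL1RL1, PLIN1 and PRDM1 none was called with normexp (0.274, 0.22 and 0.0591), and the rise of PRDM1 was 1.33 without Wnt3a replicate 3.

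The long non-coding RNA LINC00996 had the largest difference of all genes tested, 5.00 (SE 2.24; limma, adjusted p = 0.304), and was not called. It stood at −4.32, −4.81 and −4.81 untreated and at −4.30, 10.20 and −4.82 with Wnt3a, so 1 Wnt3a array, replicate 2, set the whole difference.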
